A study of Mus musculus with 6 samples.

Results

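Ephrins are membrane-bound ligands and Eph receptors are the receptor tyrosine kinases that they engage on neighbouring cells. The 9 genes described here are the ephrins Efna1, Efnb1 and Efnb2 and the Eph receptors Epha2, Epha4, Ephb1, Ephb2, Ephb3 and Ephb4. They were taken by gene symbol from a table of 55401 genes, which lists 22 ephrin and Eph receptor genes in all. RNA was sequenced from kidney endothelial cells (ECs) of 3 RbpjΔEC mice (Cre +/-; Rbpj f/f) and 3 littermates (CTRL, Cre -/-; Rbpj f/f), with 1 library per mouse. All mice were male and homozygous for the floxed Rbpj allele (Rbpj f/f), and all received tamoxifen (5 doses of 1.5 mg at 8 weeks of age). Kidneys were harvested 12 weeks after induction, and the labels give an age of 21 weeks. The RbpjΔEC mice also carried Cdh5CreERT2, a tamoxifen-inducible Cre recombinase driven by the endothelial Cdh5 promoter, which CTRL mice lacked. An effect of Cre and an effect of the deletion therefore cannot be told apart. The Cdh5 promoter is active in blood and lymphatic ECs, so the deletion was not limited to a vessel type. ECs were enriched with magnetic beads and sorted as CD31+ CD45- cells, and each library pooled all vessel types of the kidney.

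Total counts on genes lay between 39649171 and 47726850 per library, so that 3 counts, taken as the floor, equalled 0.0634 to 0.0749 CPM, the unit of counts scaled to library size. In CTRL 1, 33764 genes had a count, and in each of the others 25629 to 26785. Rbpj itself, counted over the whole gene, was at 29.2 ± 0.964 CPM in CTRL and 28.2 ± 1.87 CPM in RbpjΔEC (SD, n = 3 each, log2 fold change -0.05). Counts over the whole gene do not show whether the floxed exons were lost. Hey1, a gene activated by Notch, was at 16.7, 19.9 and 22.6 CPM in CTRL and 11.5, 8.92 and 14.6 CPM in RbpjΔEC (log2 fold change -0.76, adjusted p = 0.0722). All 10 pan-endothelial markers were detected in every library, and Cd3d and Cd3e, defining T cell genes, had no count in any library. In bulk RNA, fewer cells of a type and less RNA per cell cannot be told apart.

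A-type ephrins are held in the membrane by a lipid anchor and mainly bind EphA receptors, whereas B-type ephrins span the membrane and mainly bind EphB receptors. Contact signals in both directions, into the cell with the receptor and into the cell with the ephrin, and often makes cells draw apart. In blood vessels ephrin-B2 is the classical marker of arterial ECs and EphB4, its main vascular receptor, of venous ECs. Notch acts through the DNA-binding protein encoded by Rbpj and is known to favour the arterial side of this pair. The comparison of RbpjΔEC with CTRL thus asked how these ligands and receptors were expressed in adult kidney ECs in which Rbpj was targeted.

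The promoters of Efnb2, Ephb4 and Efnb1 are shown because these are the best known arterial and venous genes of the family and the B-type ligand whose groups also did not overlap. Each is the stretch of 250 bases before the start site in the RefSeq annotation (build GRCm38.p6), none of which is annotated as exonic. Capitals mark TGGGAA, the core letters bound by the Rbpj protein, or its reverse complement TTCCCA.
Efnb2 (chr8:8661243-8661492, minus strand): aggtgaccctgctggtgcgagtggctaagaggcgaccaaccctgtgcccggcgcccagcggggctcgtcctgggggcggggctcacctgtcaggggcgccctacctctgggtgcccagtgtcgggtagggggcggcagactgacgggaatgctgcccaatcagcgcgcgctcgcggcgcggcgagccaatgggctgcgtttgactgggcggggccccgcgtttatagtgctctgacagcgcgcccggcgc
Ephb4 (chr5:137349859-137350108, plus strand): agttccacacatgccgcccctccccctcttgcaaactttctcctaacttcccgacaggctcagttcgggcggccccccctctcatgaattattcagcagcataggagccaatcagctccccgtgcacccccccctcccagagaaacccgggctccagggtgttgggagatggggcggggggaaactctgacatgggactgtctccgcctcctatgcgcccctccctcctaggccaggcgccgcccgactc
Efnb1 (chrX:99135811-99136060, plus strand): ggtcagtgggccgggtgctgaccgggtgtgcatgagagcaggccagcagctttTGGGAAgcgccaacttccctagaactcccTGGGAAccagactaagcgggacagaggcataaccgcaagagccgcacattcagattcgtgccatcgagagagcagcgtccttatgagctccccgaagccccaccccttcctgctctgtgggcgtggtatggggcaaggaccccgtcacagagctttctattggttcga

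The Efnb1 window held 2 matches, whose first bases lie at positions -197 and -168 from the start site. The windows of Efnb2 and Ephb4 held none, with a GC content of 72.0% and 64.0% against 60% for Efnb1. Of the other 6 genes, Epha4 had 1 match, at -200, in a window of which 59 bases are exonic. For comparison, 21.6% of 32851 RefSeq promoters of this length held TGGGAA on either strand. CACGTG, an E-box form that Hey-type repressors can bind, was in no window of the 9 genes and in 6.02% of all promoters. A match is a description of the letters and not of binding, which was not measured.

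The family was strongly skewed towards a few members. Levels of different genes were compared per length, as CPM per kb of exonic length, and in CTRL the order was Ephb4, Efnb2, Efna1, Efnb1, Epha2, Epha4 and Ephb1. The venous receptor gene Ephb4 was at 207.5 ± 23.2 CPM per kb and the arterial ligand gene Efnb2 at 134.4 ± 2.00 CPM per kb (SD, n = 3). Efna1 followed at 78.5 ± 8.54 and Efnb1 at 53.2 ± 2.46 CPM per kb. The ranges of Epha2 (26.1 ± 2.04 CPM per kb) and Epha4 (22.9 ± 2.61 CPM per kb) overlapped in CTRL, so their order was within the spread. The ranges of the other neighbours among these 7 genes did not overlap. Ephb1 was at 5.93 ± 0.517 CPM per kb, above every ephrin and Eph gene outside the 9. In RbpjΔEC the order of these 7 genes was the same, from 178.5 CPM per kb for Ephb4 to 7.30 CPM per kb for Ephb1.

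**Figure D1:**
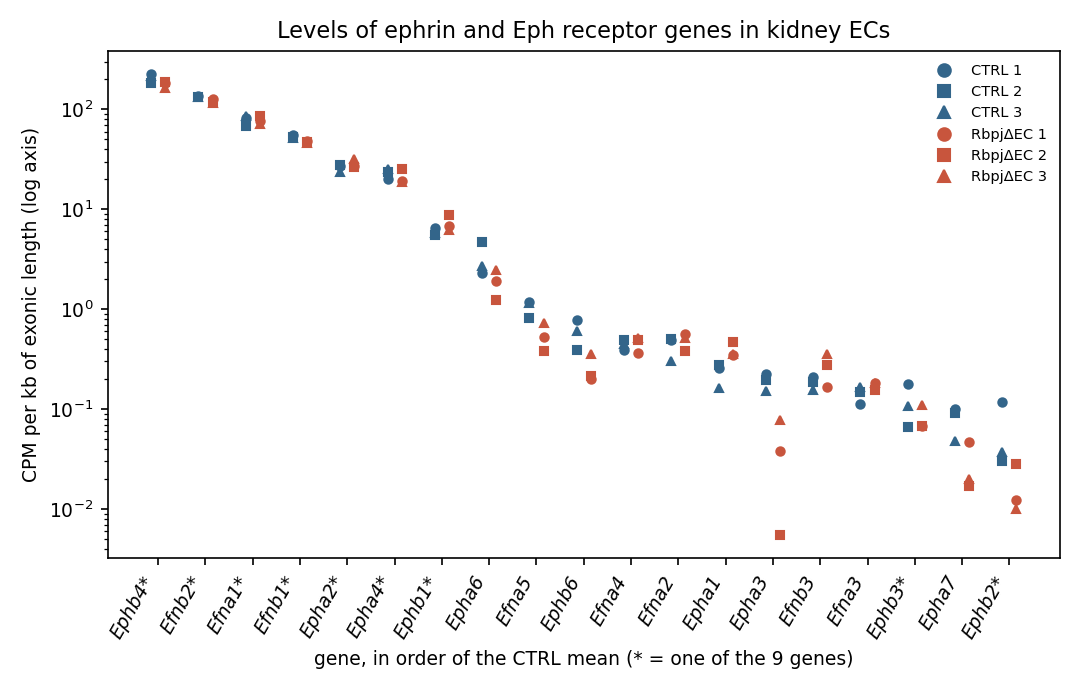
Each point is 1 library, on a log axis of CPM per kb of exonic length, for the 19 ephrin and Eph receptor genes with a count in every CTRL library. The 7 genes on the left, from Ephb4 at 207.5 to Ephb1 at 5.93 CPM per kb in CTRL, are all among the 9 described here, while Ephb3 and Ephb2 lie near the low end.

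Ephb3 and Ephb2, receptors best known from the patterning of the gut epithelium, ranked 17 and 19 of the 22 genes in CTRL, at 0.118 and 0.0615 CPM per kb. Among all 18438 tested genes, the mean level in CPM (not divided by length) put Ephb4 at percentile 99.5, Efnb2 at 99.4, Ephb1 at 77.2, Ephb3 at 17.2 and Ephb2 at 12.8. Efnb2 made up 50.1% ± 1.54 of the summed per-length level of the 8 ephrin genes in CTRL and 48.8% ± 1.72 in RbpjΔEC. Ephb4 made up 77.6% ± 2.75 of that of the 14 receptor genes in CTRL and 74.9% ± 1.98 in RbpjΔEC. Both differences were within the spread between mice.

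None of the 9 genes passed the threshold of 0.05 after adjustment in the comparison of RbpjΔEC with CTRL (quasi-likelihood test of edgeR, Benjamini-Hochberg over all tested genes). DESeq2 also called 0. Over the whole table edgeR called 1.13% of the 18438 tested genes, 0.559% lower and 0.575% higher in RbpjΔEC, and DESeq2 called 5.12%. All 9 genes passed the filter on low counts. At an unadjusted p under 0.05, 4 were lower in RbpjΔEC (Efnb1, Efnb2, Ephb2 and Ephb4) and 1 was higher (Ephb1), where 8.62% of all tested genes were lower and 8.88% higher. The 4 became 1 when scaled by library size alone, 0 without CTRL 1, 2 without CTRL 3 or RbpjΔEC 1, and 1 without RbpjΔEC 3, and the 1 higher became 0 without CTRL 2, CTRL 3 or RbpjΔEC 2. Groups did not overlap for 3 of the 9, Efnb1, Efnb2 and Ephb2, all lower in RbpjΔEC, against 11.6% of tested genes that were lower without overlap. The median log2 fold change was -0.16 over the 9 genes and 0.01 over all tested genes, and 7 of the 9 were below 0, as were 48.9% of tested genes.

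**Figure D2:**
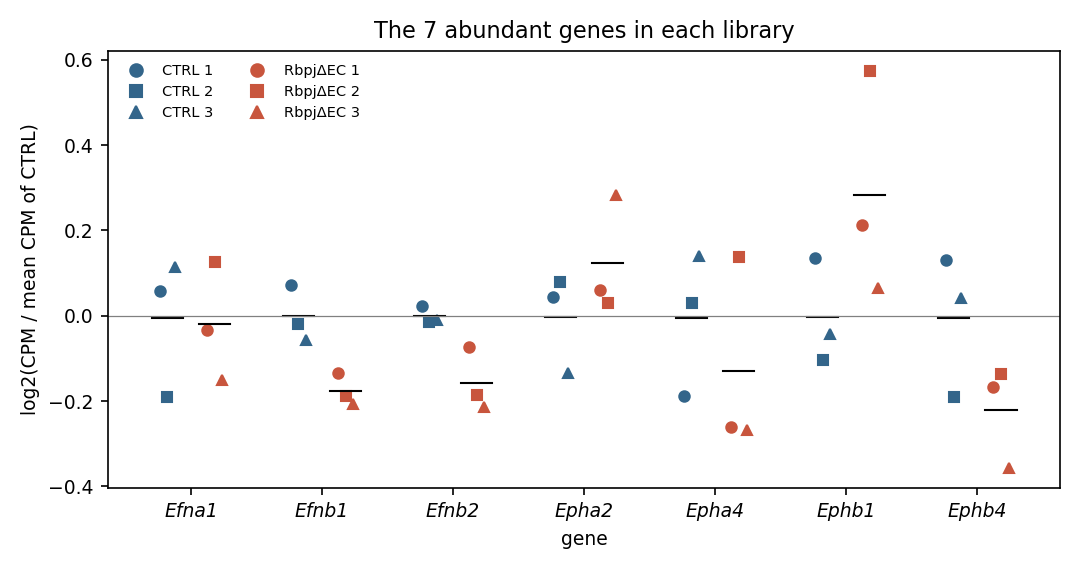
Points give the log2 ratio of CPM in each library to the CTRL mean for the 7 abundant genes, and black bars give the group means of these log2 values (n = 3 mice each). The RbpjΔEC points of Efnb1 and Efnb2 all lie below the CTRL points by small amounts, and the RbpjΔEC points of Ephb1 are spread by RbpjΔEC 2.

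Among the ligands, Efnb2 (ENSMUSG00000001300.16, chr8:8617434-8661242, minus strand, protein-coding) was at 936.8, 912.3 and 914.0 CPM in CTRL and at 875.6, 809.1 and 794.1 CPM in RbpjΔEC. All RbpjΔEC libraries were below all CTRL libraries, and the CTRL values were the most alike of the 9 genes, with a coefficient of variation of 1.49%. The group means were 921.0 ± 13.7 and 826.3 ± 43.4 CPM (SD, n = 3 each). The level was 10.3% lower in RbpjΔEC, a log2 fold change of -0.16 (SE 0.071, 95% interval -0.310 to -0.003, edgeR adjusted p = 0.275). Leaving out single libraries gave log2 fold changes of -0.20 to -0.13.

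Efnb1 (ENSMUSG00000031217.8, chrX:99136130-99148991), the B-type ligand of EphB receptors with a wide tissue range, was at 193.2, 181.2 and 176.8 CPM in CTRL and at 167.4, 161.3 and 159.1 CPM in RbpjΔEC. The groups again did not overlap, with means of 183.7 ± 8.48 and 162.6 ± 4.28 CPM. Its log2 fold change was -0.18 (SE 0.066, 95% interval -0.32 to -0.03, edgeR adjusted p = 0.194), a level 11.5% lower. Efna1 (ENSMUSG00000027954.9, chr3:89271733-89281142), a ligand of EphA2 that ECs express in response to inflammatory cytokines, was at 149.5, 125.9 and 155.4 CPM in CTRL and at 140.4, 156.6 and 129.4 CPM in RbpjΔEC. Its groups overlapped throughout, and the log2 fold change was -0.01 (SE 0.094, 95% interval -0.22 to 0.19, edgeR adjusted p = 0.955), with a sign that turned under another scaling.

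Among the receptors, Ephb4 (ENSMUSG00000029710.15, chr5:137350109-137378669) was at 1054, 843.8 and 990.7 CPM in CTRL and at 857.4, 875.9 and 751.6 CPM in RbpjΔEC. The groups overlapped, since CTRL 2 lay below both RbpjΔEC 1 and RbpjΔEC 2, and the coefficient of variation in CTRL was 11.2%. The log2 fold change was -0.22 (SE 0.094, 95% interval -0.42 to -0.01, edgeR adjusted p = 0.258), a level 14.0% lower. Neither the venous receptor nor its arterial ligand passed the threshold, with log2 fold changes of -0.22 and -0.16.

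The ratio of Efnb2 to Ephb4 within a library needs no scaling between libraries. It was 0.889, 1.08 and 0.923 (CPM over CPM) in CTRL and 1.02, 0.924 and 1.06 in RbpjΔEC. The groups overlapped, and the difference of the mean log2 ratio was 0.06, against SDs of 0.15 in CTRL and 0.10 in RbpjΔEC. Per exonic length the ratio was 0.653 ± 0.069 in CTRL and 0.677 ± 0.047 in RbpjΔEC (SD, n = 3), with more Ephb4 than Efnb2 in every library. Each library pooled all vessel types, and which ECs the counts of either gene came from was not tested. The ratio is therefore not a measure of arterial against venous ECs.

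Ephb1 (ENSMUSG00000032537.15, chr9:101922128-102354693), a receptor of B-type ephrins, was at 45.6, 38.6 and 40.3 CPM in CTRL and at 48.1, 61.8 and 43.4 CPM in RbpjΔEC. RbpjΔEC 3 lay below CTRL 1, so the groups overlapped, and RbpjΔEC 2 stood above all other libraries. The log2 fold change was 0.30 (SE 0.13, 95% interval 0.02 to 0.58, edgeR adjusted p = 0.246), and 0.14 without RbpjΔEC 2. Without the filter on low counts its adjusted p was 0.0247, in a fit that called 3.75% of 38324 genes. As a share of the summed per-length level of the 14 receptor genes, Ephb1 was at 2.12% to 2.29% in CTRL and 2.79% to 3.51% in RbpjΔEC, without overlap and with no test run on the share. The summed level itself, mostly Ephb4, was 244.1 to 284.7 CPM per kb in CTRL and 222.3 to 251.5 CPM per kb in RbpjΔEC, so the share does not show Ephb1 alone. Exons of the antisense gene Gm26846 share 152 bases with those of Ephb1, and whether the counting used strand is not given in the sources used here.

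Epha2 and Epha4 are the A-type receptors among the 9 genes, and both overlapped between the groups. Epha2 (ENSMUSG00000006445.3, chr4:141301240-141329384), the main receptor of ephrin-A1 in ECs, was at 126.0, 129.1 and 111.2 CPM in CTRL and at 127.3, 124.7 and 148.6 CPM in RbpjΔEC, where RbpjΔEC 3 was the highest library. The log2 fold change was 0.13 (SE 0.086, 95% interval -0.06 to 0.32, edgeR adjusted p = 0.468), and 0.05 without RbpjΔEC 3 or 0.06 without CTRL 3. Epha4 (ENSMUSG00000026235.14, chr1:77367185-77515088), which binds ephrins of both types, was at 161.5, 188.1 and 202.9 CPM in CTRL and at 153.8, 202.6 and 152.9 CPM in RbpjΔEC. RbpjΔEC 2 was level with the highest CTRL library, while the other RbpjΔEC libraries lay just under the lowest. The log2 fold change was -0.12 (SE 0.12, 95% interval -0.40 to 0.16, edgeR adjusted p = 0.667), and ran from -0.26 without RbpjΔEC 2 to -0.04 without CTRL 3.

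Ephb2 and Ephb3 had few counts. Ephb2 (ENSMUSG00000028664.14, chr4:136647539-136835988) had 59, 18 and 20 counts in CTRL and 7, 15 and 5 in RbpjΔEC, or 1.47, 0.380 and 0.474 CPM against 0.156, 0.358 and 0.125 CPM. The groups did not overlap, although CTRL 2 and RbpjΔEC 2 differed by only a few counts and CTRL 1 stood far above the rest. The log2 fold change was -1.84 (SE 0.65, 95% interval -3.26 to -0.43, edgeR adjusted p = 0.172). Without CTRL 1, the library with counts on the most genes, it was -0.996 (edgeR adjusted p = 0.595), and without the filter on low counts its adjusted p was 0.0390. Ephb3 (ENSMUSG00000005958.15, chr16:21204755-21223305) had 48, 21 and 30 counts in CTRL and 20, 19 and 29 in RbpjΔEC. Its log2 fold change was -0.53 (SE 0.47, 95% interval -1.54 to 0.49, edgeR adjusted p = 0.593), and -0.10 without CTRL 1 or -0.82 without CTRL 2.

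**Figure D3:**
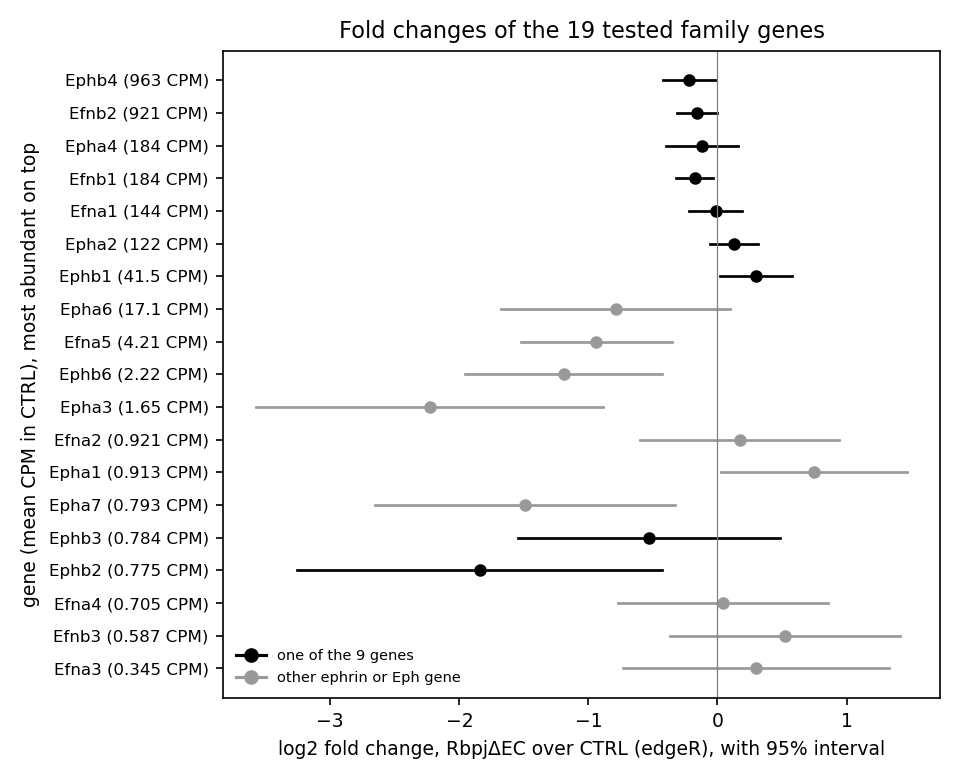
Points are edgeR log2 fold changes of RbpjΔEC over CTRL and lines their 95% intervals for the 19 tested family genes, with the most abundant gene in CTRL on top. Intervals of the 7 abundant genes stay between -0.42 and 0.58, while that of Ephb2 runs from -3.26 to -0.43.

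The other 13 ephrin and Eph genes were scarce, and 10 of them passed the filter on low counts. None was called by edgeR, 4 had a lower and 1 a higher level at p under 0.05 without adjustment, and DESeq2 called 3, all lower in RbpjΔEC (Epha3, Efna5 and Ephb6). Of all tested genes, 8.62% were lower and 8.88% higher at this p, and DESeq2 called 5.12%. The 1 higher among the 10 became 0 when any library other than CTRL 2 was left out. The median log2 fold change of the 10 was -0.37, with 5 below and 5 above 0. It was -0.15 without CTRL 2, -0.78 without the low-count filter and -0.86 over the 6 genes at 1 CPM or more in 3 libraries. Epha6, the most abundant of them, was at 12.2, 24.7 and 14.3 CPM in CTRL and at 10.1, 6.58 and 13.0 CPM in RbpjΔEC (log2 fold change -0.79, SE 0.36, edgeR adjusted p = 0.334), with overlap, and the log2 fold change was -0.43 without CTRL 2. Efna5, an A-type ligand, was at 4.71, 3.30 and 4.62 CPM against 2.12, 1.55 and 2.92 CPM (log2 fold change -0.94, SE 0.27, adjusted p = 0.107 by edgeR and 0.0238 by DESeq2). Ephb6, a receptor whose kinase domain is inactive, was at 2.92, 1.48 and 2.27 CPM against 0.758, 0.811 and 1.35 CPM (log2 fold change -1.19, SE 0.35, adjusted p = 0.115 by edgeR and 0.0376 by DESeq2). Neither Efna5 nor Ephb6 overlapped between the groups, where 11.6% of all tested genes were lower without overlap.

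The next 3 genes were chosen after their values were seen. Epha3, an A-type receptor typical of stromal cells, had 78, 80 and 56 counts in CTRL and 15, 2 and 27 in RbpjΔEC (log2 fold change -2.23, SE 0.61, adjusted p = 0.103 by edgeR and 0.00629 by DESeq2). Epha7 was lower without overlap as well (log2 fold change -1.49, edgeR adjusted p = 0.177), and Epha1 was higher without overlap (log2 fold change 0.75, edgeR adjusted p = 0.263). Of all tested genes, 11.6% were lower and 11.4% higher without overlap. Of the 3 genes not tested, Epha10 had 19 counts in CTRL 1 and none elsewhere.

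Markers of other cell types were read beside the scarce genes. Of the 11 mural markers (pericytes and smooth muscle), 10 were tested, 9 were below 0, and 3 fell by edgeR (Acta2, Myh11 and Rgs5) and 8 by DESeq2, with a summed level of 98.9 to 126.5 CPM in CTRL and 64.4 to 72.8 CPM in RbpjΔEC. The remaining mural marker, Kcnj8, went the other way without overlap, from 11.1 ± 1.36 to 21.1 CPM (log2 fold change 0.93, edgeR adjusted p = 0.162), and was the 1 mural gene that DESeq2 called higher. The mural calls of edgeR became 0 without CTRL 1 or RbpjΔEC 1, 1 without CTRL 3 and 9 (1 of them higher) without RbpjΔEC 3. Of the 6 stroma markers 3 were tested, all were below 0 and 1 fell (Pdgfra), with sums of 4.63 to 7.08 CPM against 1.54 to 2.92 CPM. The stroma call was lost with robust estimation off and without CTRL 1, CTRL 3, RbpjΔEC 1 or RbpjΔEC 2, and 2 genes were called without CTRL 2 or RbpjΔEC 3. Lum, a defining stroma marker, had no count in 5 of the 6 libraries. Tubule markers summed to 283.5 to 436.2 CPM in CTRL and 101.3 to 374.9 CPM in RbpjΔEC, with 6 of 8 below 0 and none called by edgeR (2 by DESeq2, and 2 without RbpjΔEC 3). The other 2, the proximal tubule genes Lrp2 (log2 fold change 1.27, edgeR adjusted p = 0.523) and Slc34a1 (log2 fold change 1.28, edgeR adjusted p = 0.516), were above 0 and were highest in RbpjΔEC 3, at 129.2 and 73.5 CPM. The part of these cells in the values of Epha3, Efna5, Ephb6, Epha7 and Ephb2 was not tested.

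**Figure D4:**
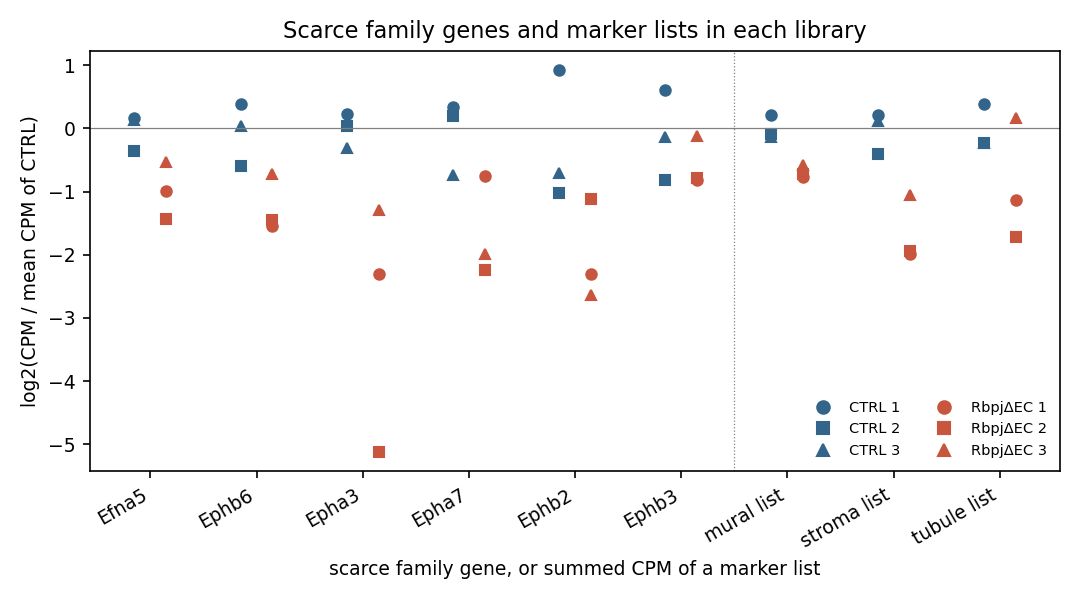
Points give the log2 ratio of CPM to the CTRL mean in each library for 6 scarce family genes, and right of the dotted line for the summed CPM of the mural, stroma and tubule marker lists. For Efna5, Ephb6, Epha3, Epha7 and Ephb2 and for the mural and stroma sums, all RbpjΔEC points lie below all CTRL points.

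Endothelial markers were compared in the same way beside the abundant genes. Over the 10 pan-endothelial markers the median log2 fold change was -0.16, and 7 were below 0. edgeR called none of them, DESeq2 called 3, all lower, and at p under 0.05 without adjustment edgeR had 3 lower and 1 higher. Without CTRL 2 or RbpjΔEC 3 edgeR called 1 of them, and without adjustment 6 were lower without CTRL 2 and 5 without RbpjΔEC 2. They summed to 17350 to 19350 CPM in CTRL and 15780 to 16200 CPM in RbpjΔEC. Kdr (means of 5994 CPM in CTRL and 4960 CPM in RbpjΔEC) and Eng (2421 and 1828 CPM) had the largest falls in CPM. Egfl7 (log2 fold change 0.22), Erg (0.06) and Esam (0.01) were above 0, so the sum is not the level of every endothelial gene. On a scale relative to this sum, a ratio chosen after the data were seen and given without a test, every gene shifted up by 0.21 on the log2 scale, since the sum was lower in RbpjΔEC. The log2 difference was 0.05 for Efnb2, 0.03 for Efnb1, -0.01 for Ephb4 and 0.49 for Ephb1. For Efna1 it was 0.19, for Epha2 0.33, for Epha4 0.08, for Ephb2 -1.54 and for Ephb3 -0.25. Ephb1, Epha2 and Efna1, all higher in RbpjΔEC on this ratio, did not overlap between the groups. The same held for 31.4% of all tested genes in that direction and 2.83% in the other. The other 6 genes, Efnb2, Efnb1 and Ephb2 among them, overlapped. The part of the pan-endothelial level in the lower values of Efnb2, Efnb1 and Ephb4 was not tested.

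Of the 12 arterial markers, 10 were below 0, and 2 fell by edgeR (Jag1 and Fbln5) and 7 by DESeq2, with a median log2 fold change of -0.52, against -0.16 for Efnb2. The edgeR calls became 0 without CTRL 3 or RbpjΔEC 1, 1 without CTRL 1 or RbpjΔEC 2, 3 without CTRL 2 and 5 without RbpjΔEC 3. The Notch ligand gene Dll4 was higher without overlap, at 471.4 ± 32.7 CPM in CTRL and 549.4 CPM in RbpjΔEC (log2 fold change 0.22, edgeR adjusted p = 0.162). Jag1, a Notch ligand, had a log2 fold change of -0.54 (edgeR adjusted p = 0.0368) and Fbln5, an elastic fibre protein, of -0.72 (edgeR adjusted p = 0.0227). Of the 7 tested venous markers, 3 were below 0 and 1 fell, Vwf, which is not limited to veins (log2 fold change -0.75, edgeR adjusted p = 0.00691), a call lost without RbpjΔEC 1. The venous median was 0.065, and 4 were above 0, among them Lhx6 (log2 fold change 0.485, edgeR adjusted p = 0.258) and Aplnr. Aplnr was at 109.6 ± 21.0 CPM in CTRL and at 222.2, 352 and 94.0 CPM in RbpjΔEC (log2 fold change 1.02, edgeR adjusted p = 0.424), with overlap. All 5 glomerular EC markers were below 0 and 2 fell, Lpl and Pi16, and the list summed to 1821 to 2306 CPM in CTRL and 1200 to 1649 CPM in RbpjΔEC. These calls became 0 without CTRL 3 or RbpjΔEC 1 and 5 without RbpjΔEC 3. Immediate-early genes, which respond to cell handling among other stimuli, summed to 4775 to 5574 CPM in CTRL and 6412 to 7823 CPM in RbpjΔEC, and 5 of 8 rose. Their calls became 0 without CTRL 3, 1 without CTRL 1, RbpjΔEC 1 or RbpjΔEC 2, and 3 with robust estimation off. The part of these changes in the values of the 9 genes was not tested.

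Partner genes, 24 in all, encode proteins that bind ephrins or Eph receptors or pass on their signal. Of the 23 that were tested, edgeR and DESeq2 called 0. At an unadjusted p under 0.05 edgeR had 0 lower and 2 higher, against 8.62% and 8.88% of all tested genes. The 2 higher became 0 without CTRL 3 or RbpjΔEC 2, 1 without CTRL 1 or RbpjΔEC 1 and 4 without RbpjΔEC 3. They became 0 by DESeq2, 1 with robust estimation off or with the size factors of DESeq2, and 4 when scaled by library size alone. The median log2 fold change was -0.02, with 13 below and 10 above 0. The smallest p belonged to 3 signalling genes with higher values in RbpjΔEC. The Src-family kinase gene Yes1 was at 129.2 ± 5.27 CPM in CTRL and 143.4 ± 5.65 CPM in RbpjΔEC (log2 fold change 0.15, SE 0.067, edgeR adjusted p = 0.272). The kinase gene Abl1 was at 164.9 ± 11.1 and 184.0 ± 6.07 CPM (log2 fold change 0.16, SE 0.071, edgeR adjusted p = 0.275). Vav2, a signalling protein gene, was at 14.6 ± 2.48 and 17.8 ± 1.84 CPM (log2 fold change 0.29, SE 0.14, edgeR adjusted p = 0.300). Without CTRL 3 the value of Vav2 was 0.15, and without CTRL 1 that of Abl1 was 0.10.

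The genes whose values were most like those of Efnb2 and Ephb4 over the 6 libraries were found among 10434 tested genes with a mean of at least 5 CPM. Likeness was the mean absolute difference of log2 CPM values, each centred on the gene's own mean. For Efnb2 these were Ubxn2a (0.018), Tex264 (0.018) and Spata13 (0.020), where the median over all genes compared was 0.12. For Ephb4 they were Mfsd5 (0.023), Tubb5 (0.025) and Derl1 (0.025), with a median of 0.16. All 6 had log2 fold changes between -0.26 and -0.13, none past the threshold of edgeR. Fold changes and distances close to those of Efnb2 and Ephb4 follow from this way of choosing the genes and are not a separate result.

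The introns of Efnb2 hold 3 unspliced loci on its own strand that GENCODE lists as separate genes of type TEC, a class of transcripts still awaiting experimental study. They share no exonic base with Efnb2, and were chosen after their values were seen. E230020D15Rik (chr8:8629175-8635073) was at 54.8, 62.7 and 61.0 CPM in CTRL and at 84.5, 66.8 and 71.1 CPM in RbpjΔEC (log2 fold change 0.32, SE 0.095, edgeR adjusted p = 0.119). Gm45073 (chr8:8642766-8647012) was at 23.8, 29.9 and 25.3 CPM in CTRL and at 38.6, 33.6 and 45.6 CPM in RbpjΔEC (log2 fold change 0.57, SE 0.12, adjusted p = 0.0514 by edgeR and 0.00163 by DESeq2). Gm45074 (chr8:8637966-8639205) had a log2 fold change of 0.34 (edgeR adjusted p = 0.199), with overlap between the groups. Without RbpjΔEC 1 the values of E230020D15Rik and Gm45074 were 0.21 and 0.23. By edgeR, Gm45073 passed with library size alone (adjusted p = 0.0389) and without CTRL 2 (adjusted p = 0.0232), and all 3 loci passed without the low-count filter (adjusted p = 1.4e-06 for Gm45073, 0.00825 for E230020D15Rik and 0.0398 for Gm45074).

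Per 100 counts on Efnb2, the 3 intronic loci together had 10.2, 12.7 and 11.7 counts in CTRL and 17.4, 15.2 and 17.8 counts in RbpjΔEC. The groups did not overlap in this ratio. TEC genes as a class were also higher in RbpjΔEC. Their median log2 fold change was 0.27 over 1180 tested genes, 79.7% of which were above 0, and that of 179 sense-intronic genes was 0.31, against -0.03 for 13510 protein-coding genes. Gm45073 had the largest rise of the 3 loci. A log2 fold change at least as high was seen in 19.6% of the TEC genes, 21.2% of the sense-intronic genes and 5.12% of the protein-coding genes. The part of this shift in the values of the loci within Efnb2 was not tested.

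**Figure D5:**
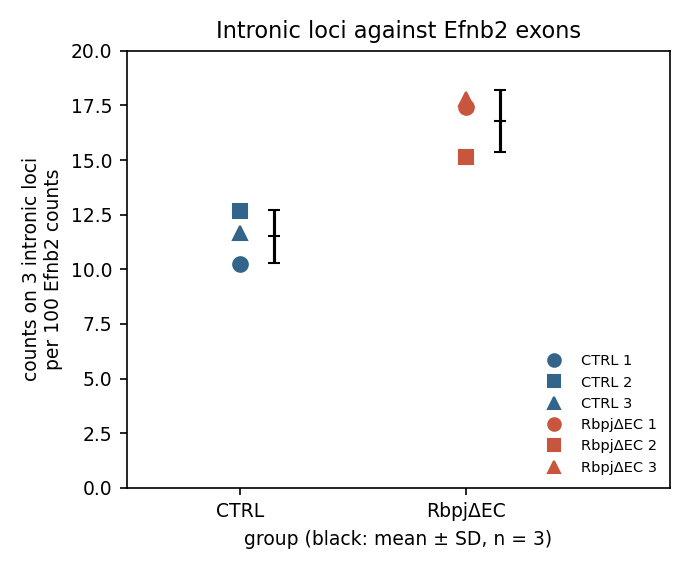
Points give, for each library, the counts on the 3 loci within Efnb2 introns per 100 counts on Efnb2, and black marks give the mean ± SD (n = 3 mice). The CTRL libraries lie between 10.2 and 12.7 and the RbpjΔEC libraries between 15.2 and 17.8.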

How the data were processed

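Reads of stranded total RNA libraries were processed by the authors with the nf-core/rnaseq pipeline (version 1.4.2, with STAR 2.6.1d and featureCounts of Subread 1.6.4 per the submitters' processing notes) on GRCm38.p6 with GENCODE M25. The authors deposited whole-number counts per gene, without normalization. Sample labels gave the groups. Fold changes with p-values, and CPM scaled by TMM, came from edgeR 4.0.16 in R 4.3.3 (filterByExpr, glmQLFit with robust estimation, glmQLFTest) on all 6 libraries, with Benjamini-Hochberg adjustment over 18438 genes and a threshold of 0.05. The authors tested with DESeq2, and version 1.42.0 of it was the alternative here, with the outlier and independent filters off, on the same genes. An SE is the size of a log2 fold change over the square root of its F statistic. Exonic lengths and positions came from GENCODE M21 (GRCm38), which held all 22 family identifiers. Both tests were tested on simulated data first. Counting error is smaller than the spread between mice for abundant genes. No pair of libraries in a group was a duplicate.

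The 9 genes and all lists were chosen with earlier results of these data known. Genes named were the 9, the 3 most abundant other family genes, the 3 partner genes with the smallest p, the 3 genes most like Efnb2 and Ephb4, any list gene past the threshold, and defining markers where set beside a result. Exceptions are marked, and Kcnj8, Dll4, Csf1r, Lrp2 and Slc34a1 were also chosen after their values were seen. The same holds for Kdr, Eng, Egfl7, Erg, Esam, Aplnr and Lhx6. The marker lists were pan-endothelial, arterial, venous, glomerular and lymphatic EC, mural, stroma, podocyte, tubule, B cell, T cell, macrophage and immediate-early genes. Protein sequences were not analysed here.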

Additional observations from a re-analysis of the deposited data

How the results depend on the processing

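The 9 genes gave 0 calls under every alternative with a value (other scalings, DESeq2, robust estimation off, the replicate block, at least 1 CPM in 3 libraries, each library left out) except without the low-count filter, which called 2 (Ephb2 lower, Ephb1 higher) where 3.75% of 38324 genes were called. The filter at 1 CPM removed Ephb2 and Ephb3, which then gave no value. Of the other family genes, 3 were called without the filter and 3 by DESeq2, and 0 to 2 when a library was left out (2, Epha3 and Efna5, without RbpjΔEC 3). Partner genes gave 0 calls under each of these alternatives. Over the whole table the 209 calls became 1436 without the filter, 944 by DESeq2, 344 with the replicate block and 21 to 700 when a library was left out, 21 without RbpjΔEC 1 and 700 without CTRL 2. Scaling by library size alone gave 82 lower and 159 higher calls, against 103 and 106, and shifted the median of all genes from 0.01 to 0.05. The Efna1 log2 fold change turned positive with library size alone (0.029) and relative to the pan-endothelial sum (0.193), and was -0.107 to 0.049 when a library was left out (0.011 without CTRL 1, 0.044 without CTRL 3 and 0.049 without RbpjΔEC 3). Dividing by that sum adds 0.206 to every gene by construction, so that Efnb1 (0.030), Efnb2 (0.048) and Epha4 (0.082) also turned positive. Scaling by library size alone moved Efna1 from -0.014 to 0.029 and the median of all tested genes from 0.007 to 0.05. The cause of the sign changes of Efna1 when a library was left out was not tested. DESeq2 called more marker genes, among them 3 glomerular EC, 2 venous, 2 stroma, 2 tubule, 1 podocyte and 1 lymphatic EC gene that were lower and 7 immediate-early genes that were higher. The Efnb2 to Ephb4 log2 difference, 0.06, was 0.00 to 0.14 when a library was left out.

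Labels number the mice 1 to 3 in both groups without saying that a number pairs them. Deviations from the group means correlated at 0.023, 0.009 and 0.005 between same-numbered libraries, so the numbers were not taken as pairs. With the replicate block, Efnb2 stood at -0.16 and Ephb4 at -0.21.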

Other observations

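Marker lists not set beside a result had these values. For the 4 tested lymphatic EC markers the median log2 fold change was -0.59, with summed levels of 609.4 to 695.1 CPM in CTRL and 636.3 to 670.7 CPM in RbpjΔEC and no gene called by edgeR. They split evenly, with log2 fold changes of 0.17 for Prox1 and 0.01 for Flt4 and of -1.19 for Lyve1 and -1.47 for Ccl21a, both scarce. At 1 CPM or more in 3 libraries the median of the 3 genes left was 0.02, and edgeR called 1 gene without CTRL 2. The 5 podocyte markers had a median of -0.66 with none called (-0.32 without CTRL 3, -1.36 and 2 calls without RbpjΔEC 3, 1 call without CTRL 2), and their sum rests on Podxl and Synpo, which ECs also express. B cell markers summed to 0.613 to 0.758 CPM in CTRL and 0.245 to 0.574 CPM in RbpjΔEC, and T cell markers to at most 0.1995 CPM in any library. Of 4 macrophage markers 3 were tested and 1 rose by edgeR, Cd68 (log2 fold change 1.27, adjusted p = 0.0154), a lysosomal protein gene not limited to macrophages, while Csf1r had a log2 fold change of -1.57 (from 2.38 ± 1.33 to 0.798 CPM, edgeR adjusted p = 0.134) and Adgre1 was at 0.000 to 0.424 CPM. The Cd68 call was lost without CTRL 3, RbpjΔEC 1 or RbpjΔEC 2. DESeq2 called 1 macrophage gene lower and 1 higher.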
